A study of Mus musculus with 18 samples.

Results

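Lcn2, Mt1, Mt2 and Slc39a14 were followed across isolated quadriceps myofibers from 18 mice, with 1 RNA library each. The 4 genes were taken by name, after their Ensembl identifiers had been matched to symbols, from a table of 43430 genes. They were chosen by treatment results of these same libraries, their levels in the vehicle, weekly and daily groups, so their differences between vehicle, weekly and daily groups are given as a description with no p. All 4 of the 4 passed the filter on low counts, which left 13596 genes for the fits.

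The mice were male or female C57BL/6 animals (C57BL/6J in the study's methods), aged 10 weeks at the start and injected i.p. every day for 4 weeks. Daily groups received prednisone, a synthetic glucocorticoid, at 1 mg/kg on each day, and vehicle groups received the carrier, DMSO in PBS. Weekly groups received prednisone at 1 mg/kg on 1 day a week and vehicle on the other 6 days, for 5 prednisone injections, the last of them 2 days before the muscle was taken. Each combination of sex and treatment had 3 libraries, with 10506661 to 14686654 counts per library. Myofibers were what a 40 µm strainer held back after 1 hour in collagenase II, and other cells of the muscle can be held back with them. The 7 myofiber markers together reached 118312 to 218507 CPM (read counts scaled to a common library size with TMM factors) in every library, against 32.6 to 99.1 for 8 macrophage markers and 1.13 to 6.1 for 13 neutrophil markers. In bulk RNA, a smaller share of a cell type and less RNA per cell cannot be told apart.

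Lcn2 encodes lipocalin 2, a secreted protein that binds iron-carrying siderophores and is made by neutrophils, epithelia and adipocytes in inflammation. Mt1 and Mt2 encode metallothioneins, small cysteine-rich proteins that hold zinc and copper inside the cell. Both are classic targets of metals, through the zinc-sensing factor MTF1, and of glucocorticoids, through the glucocorticoid receptor. Slc39a14 encodes ZIP14, an importer of zinc, iron and manganese at the cell surface that is raised in the acute-phase response.

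On mm10, Lcn2 lies on the minus strand of chromosome 2 at chr2:32384633-32388252. Mt2, at chr8:94172618-94173567, and Mt1, at chr8:94179089-94180325, lie on the plus strand with 5521 bases between them. Slc39a14 lies on the minus strand at chr14:70303469-70351425. Exons of the antisense gene Gm45774 overlap Mt2, and 45.8% of the 50-base windows of Mt2 were shared with it. The use of strand in counting was not given, so reads from that gene and from Mt2 could not be separated. Mt1 and Mt2 shared no 50-base window, and 0.196% of the windows of Slc39a14 occurred in another gene.

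The 250 bases before the start of 3 of the members, from RefSeq on GRCm38.p6, are shown because these windows differ in the letters known to bind metal and steroid factors. Each window hangs on the RefSeq start used. Matches past that start or further upstream were not looked for, so numbers of matches compare windows and not genes. They were read 5′ to 3′ on the strand of the gene, from chr2:32387740-32387989 (minus), chr8:94178839-94179088 (plus) and chr8:94172368-94172617 (plus). The Lcn2 window lies inside the gene span given above, because the RefSeq start used for it is not the outer end of that span. Capitals mark every match, on either strand, to the metal response cores TGCACNC and TGCGCNC, to the glucocorticoid receptor consensus ACANNNTGT, to the C/EBP core TTGCNNAA, to the STAT core TTCNNNGAA and to the NF-kB consensus.
Lcn2: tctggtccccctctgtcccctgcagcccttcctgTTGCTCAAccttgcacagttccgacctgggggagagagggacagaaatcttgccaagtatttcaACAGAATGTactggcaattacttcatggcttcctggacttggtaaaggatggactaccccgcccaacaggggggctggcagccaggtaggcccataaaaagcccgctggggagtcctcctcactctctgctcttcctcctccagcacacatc
Mt1: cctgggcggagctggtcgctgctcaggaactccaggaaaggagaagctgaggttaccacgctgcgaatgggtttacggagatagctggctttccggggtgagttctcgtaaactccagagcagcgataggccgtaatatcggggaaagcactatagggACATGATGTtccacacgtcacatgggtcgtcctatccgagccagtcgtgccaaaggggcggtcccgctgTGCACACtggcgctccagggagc
Mt2: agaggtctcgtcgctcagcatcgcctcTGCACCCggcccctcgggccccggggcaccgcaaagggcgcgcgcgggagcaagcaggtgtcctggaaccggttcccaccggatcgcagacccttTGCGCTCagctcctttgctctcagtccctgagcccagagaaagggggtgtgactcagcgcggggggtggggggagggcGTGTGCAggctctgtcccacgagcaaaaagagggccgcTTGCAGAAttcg

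Lcn2 held ACAGAATGT from base -152 to -144, counted back from the RefSeq start, and a C/EBP core, TTGCTCAA, from -216 to -209. Mt1 held ACATGATGT from -92 to -84 and 1 metal response core, TGCACAC, from -23 to -17. Mt2 held 3 metal response cores, starting at -223, -128 and -50, the last of them on the opposite strand, and a C/EBP core at -12. Of 32817 promoter windows, 5.84% held ACANNNTGT, 21.4% held a metal response core of either kind and 1.26% held 3 or more of them. The C/EBP core was in 9.57% of windows, the STAT core in 7.01% and the NF-kB consensus in 3.9%, and none of the 3 windows shown held either of the last pair. A match is a run of letters and not a measured site.

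Lcn2 was the member that stood apart between treatments. Its CPM values in male vehicle libraries were 1.23, 1.28 and 1.25, in male weekly libraries 5.72, 5.76 and 3.90, and in male daily libraries 5.98, 5.85 and 4.80. Every treated male library was above every vehicle male library, and the weekly and daily values overlapped. In females the vehicle values were 2.03, 2.28 and 2.24, the weekly values 4.69, 3.25 and 2.70, and the daily values 4.68, 13.9 and 5.20. Again no treated library reached down to vehicle, and female daily replicate 2 was far above the other two of its group. These values rest on few reads, from 12 to 14 counts in a male vehicle library to 221 in female daily replicate 2. The SD of the male vehicle group, 0.0232 CPM, was smaller than the 0.348 CPM that counting alone would give, so the closeness of its 3 values is no measure of how much mice vary.

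Daily prednisone was accompanied by 4.42-fold higher Lcn2 in males (log2 fold change 2.14 ± 0.39, SE, n = 3 and 3) and 3.63-fold higher Lcn2 in females (1.86 ± 0.36). Weekly prednisone was accompanied by a 4.06-fold difference in males (2.02 ± 0.39) and a 1.63-fold difference in females (0.71 ± 0.37). Lcn2 was thus 1 of the 4 members above vehicle without overlap in all 4 treated groups. Of all genes tested, 0.449% did this.

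Against an adjusted p of 0.05 in edgeR, Lcn2 was the 1 member of 4 among the genes that passed in daily males, where 6.46% of all genes did, in daily females, where 0.382% did, and in the mean of both sexes, where 15% did. These are the contrasts from which the members were picked, and nothing is read from the counts. In the weekly comparisons edgeR passed 0 of 4 members and 0% of all genes in males, in females and in the mean of the sexes, although 777, 1083 and 1492 genes had an unadjusted p under 0.05. DESeq2 passed 1 gene in weekly males, 0.00736% of those tested, and that gene was Lcn2. It passed 152 genes in weekly females, without Lcn2, and 183 in the mean of the sexes, 1.35% of those tested, with it. Without female daily replicate 2, edgeR passed 1 gene in weekly males and 1 in the weekly mean of the sexes, in both Lcn2. Without female weekly replicate 2 it passed 174 genes in the weekly mean of the sexes, Lcn2 among them. In daily females the log2 fold change was 1.18 without female daily replicate 2, and Lcn2 no longer passed without any 1 of 14 of the 18 libraries, nor under the replicate block. In daily males the value stayed between 2.09 and 2.27 whichever of the 6 libraries was left out, and the pass was lost without male vehicle replicate 1.

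**Figure D1:**
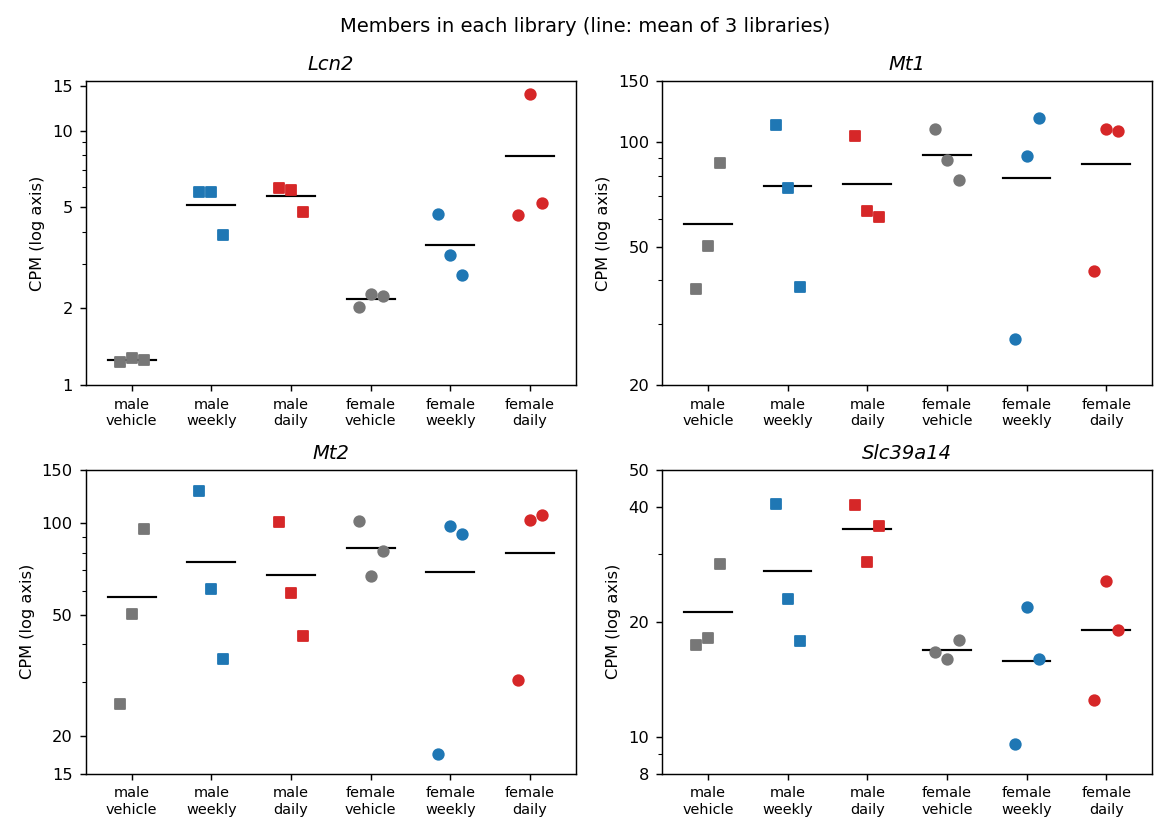
CPM of each member on a log axis, 1 panel per gene, with 1 point per library (squares male, circles female; grey vehicle, blue weekly, red daily) and a line at the mean of the 3 libraries of a group. Lcn2 is higher in every treated library than in the vehicle libraries of the same sex, while Mt1 and Mt2 spread from 27.2 to 117.6 and from 17.4 to 128.1 CPM with overlap between the groups.

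The metallothioneins did not separate by treatment. Mt1 was at 37.8, 50.3 and 86.9 CPM in male vehicle, 112.4, 73.6 and 38.3 in male weekly, and 103.9, 63.2 and 60.8 in male daily libraries. In females it was at 109.4, 89.0 and 77.8 CPM with vehicle, 27.2, 91.1 and 117.6 with weekly, and 42.5, 109.1 and 108.0 with daily prednisone. All of these groups overlapped within each sex, and the lowest and the highest Mt1 values of the series stood in the same group, female weekly.

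Mt2 was at 25.5, 50.3 and 95.9 CPM in male vehicle, 128.1, 60.6 and 35.7 in male weekly, and 100.9, 59.1 and 42.5 in male daily libraries. Female libraries held 101.4, 67.2 and 80.8 CPM with vehicle, 17.4, 98.1 and 92.3 with weekly, and 30.4, 102.8 and 106.1 with daily prednisone. The libraries low in Mt1 were low in Mt2 as well, among them female weekly replicate 1 and female daily replicate 1. The fitted log2 differences from vehicle ran from -0.23 ± 0.51 to 0.38 ± 0.51 for Mt1 and from -0.27 ± 0.67 to 0.39 ± 0.67 for Mt2 over the 4 treated groups. Each was smaller than its own SE. Errors of this size leave room for sizeable differences either way, and no statement that the metallothioneins were unaffected can be made.

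Slc39a14 was at 17.4, 18.1 and 28.3 CPM in male vehicle, 40.6, 22.9 and 17.8 in male weekly, and 40.5, 28.7 and 35.7 in male daily libraries. All male daily libraries were above the vehicle ones, by a narrow margin of 28.7 against 28.3 CPM. In females, vehicle libraries held 16.7, 16 and 17.9 CPM, weekly libraries 9.58, 21.8 and 16, and daily libraries 12.5, 25.6 and 19.0, so that both treated groups overlapped vehicle. The log2 fold change was 0.72 ± 0.33 in daily males, 0.18 ± 0.33 in daily females, 0.35 ± 0.33 in weekly males and -0.10 ± 0.34 in weekly females.

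Members above vehicle without overlap numbered 2 of 4 in daily males, Lcn2 and Slc39a14, where 16.4% of all genes were. Lcn2 alone was so in daily females, weekly males and weekly females, where 12.9%, 7.76% and 4.94% of all genes were. No member was below vehicle without overlap in any of them.

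**Figure D2:**
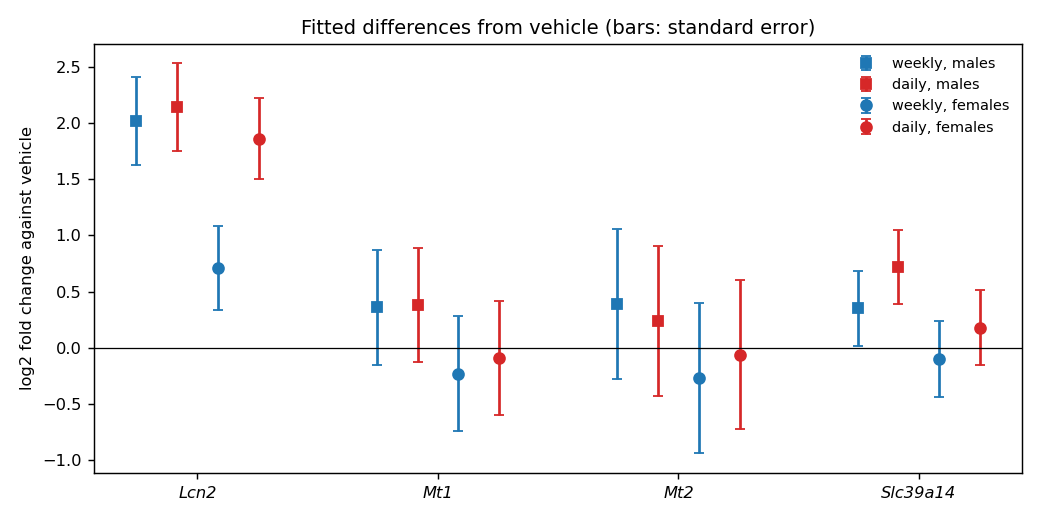
Fitted log2 fold change of each member against the vehicle group of the same sex, with bars of 1 SE (3 libraries a group; squares male, circles female; blue weekly, red daily). Lcn2 lies between 0.71 and 2.14, and the Mt1 and Mt2 values lie between -0.27 and 0.39 with bars that cross 0.

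Per kilobase of transcript, the metallothioneins were the most abundant members in every group. Group means ran from 106.3 to 167.7 CPM per kilobase for Mt1 and from 112.1 to 162.7 for Mt2, against 3.21 to 7.1 for Slc39a14 and 1.37 to 8.66 for Lcn2. Mt1 and Mt2 did not differ beyond their spread in any group, with Mt1 at 167.7 ± 29.2 and Mt2 at 162.7 ± 33.8 CPM per kilobase in female vehicle libraries (SD, n = 3), for example. Slc39a14 was above Lcn2 in vehicle groups, at 4.32 ± 1.24 against 1.37 ± 0.0253 in males and 3.42 ± 0.199 against 2.39 ± 0.146 in females. In weekly groups the pair lay within the SD of either gene, at 5.5 ± 2.42 for Slc39a14 and 5.6 ± 1.16 for Lcn2 in males and at 3.21 ± 1.24 and 3.88 ± 1.12 in females. With daily prednisone Slc39a14 was at 7.1 ± 1.2 and Lcn2 at 6.06 ± 0.707 CPM per kilobase in males, and in females they were at 3.87 ± 1.33 and 8.66 ± 5.66. In both daily groups the gap was larger than the smaller SD and smaller than the larger one.

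Of the remaining metallothionein genes, Mt3, known from brain, had 0.294 to 1.67 CPM over the 18 libraries. Mt4, known from stratified epithelia, was at 0 in every library but 1, which had 0.0896 CPM. Of the known receptors of lipocalin 2, Lrp2 had no count in any library, and Slc22a17 was found at 1.47 to 6.51 CPM. Mt3, Mt4 and Lrp2 were added to the description after their values had been seen.

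The rule that chose the members names treatment groups and not sex. The vehicle libraries still enter the treatment contrasts that chose the members, so member differences between the vehicle sexes are given with no p. In vehicle mice Lcn2 was 1.74-fold higher in females (log2 difference 0.80 ± 0.42), and the 3 female values were all above the 3 male ones. In this comparison edgeR passed 0 of 4 members and 0.765% of all genes, and DESeq2 passed 235 genes, none of them a member. Nothing is read from these counts. Without overlap, 1 of 4 members was higher in females, and 9.66% of all genes were. Female minus male log2 values were 0.66 ± 0.51 for Mt1, 0.54 ± 0.67 for Mt2 and -0.33 ± 0.34 for Slc39a14, all by edgeR.

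The weekly response of Lcn2 differed between the sexes by -1.31 ± 0.54 (female minus male, log2 scale), and the daily response by -0.28 ± 0.53. These are differences of the treatment contrasts that chose the members and are given with no p. For Mt1, Mt2 and Slc39a14 the female minus male differences in response lay between -0.65 and -0.30 on the log2 scale, with SEs of 0.47 to 0.94. For both responses, edgeR passed 0 of the 4 members and 0% of all genes, with 638 genes (daily) and 357 genes (weekly) under an unadjusted p of 0.05. DESeq2 passed 2 genes for the daily and 0 for the weekly response, none of them a member.

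Mt1 and Mt2 varied together from mouse to mouse. Over 18 libraries their log2 CPM had a Pearson r of 0.97 and a Spearman rho of 0.92. Values over the 18 libraries hold the treatment differences that chose the members, so these relations are given with no p. Without the 2 libraries farthest from the median of Mt2, r was 0.94, and for deviations from the group means it was 0.97. The ratio of Mt1 to Mt2 stayed between 0.878 and 1.56, while Mt1 itself spanned 4.32-fold and Mt2 7.35-fold. The spread within groups was an SD of 0.72 for Mt1 and 0.94 for Mt2 on the log2 scale. That is more than 94.1% and 97.7% of all tested genes, whose median was 0.28, and more than Lcn2 (0.41) and Slc39a14 (0.45).

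Slc39a14 followed the metallothioneins less closely over all libraries and closely within groups. Its r was 0.51 with Mt1 (rho 0.31) and 0.56 with Mt2 (rho 0.48), given with no p for the same reason. Without the 2 farthest libraries these were 0.41 and 0.46. For deviations from the group means, r was 0.87 with Mt1 and 0.88 with Mt2, given as a description. Female weekly replicate 1 was the lowest library of the series for Mt1, Mt2 and Slc39a14 alike. Over all libraries Lcn2 had r = 0.17 with Mt1 (rho 0.21) and 0.14 with Mt2 (rho 0.27), again with no p. For deviations from the group means its r was 0.12 with each of them.

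The 5 genes most like the mean of Mt1 and Mt2 over the 18 libraries were Sik1 (Pearson r = 0.93) and Myc, Btg2, Apold1 and Fosl2 (r = 0.91 each). Sik1, a kinase gene induced by cyclic AMP, ran from 39.8 CPM in female weekly replicate 1, where both metallothioneins were lowest, to 177.0 CPM in male weekly replicate 1, where Mt2 was highest. Myc, Btg2 and Fosl2 are known as immediate early or early response genes. The 5 most like Slc39a14 were Il1r1 (0.90), Itgb1, Prkx and Esyt2 (0.89 each) and Sgk1 (0.88), and Il1r1, the interleukin 1 receptor, ranged from 6.90 to 22.3 CPM. The 5 most like Lcn2 were Vps13b (0.86), Dusp11 (0.84), and Cxxc1, Taf1 and Tmtc3 (0.82 each). These genes were the highest among 13596, the libraries share depth and dissection as well as treatment, and the values are a description.

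**Figure D3:**
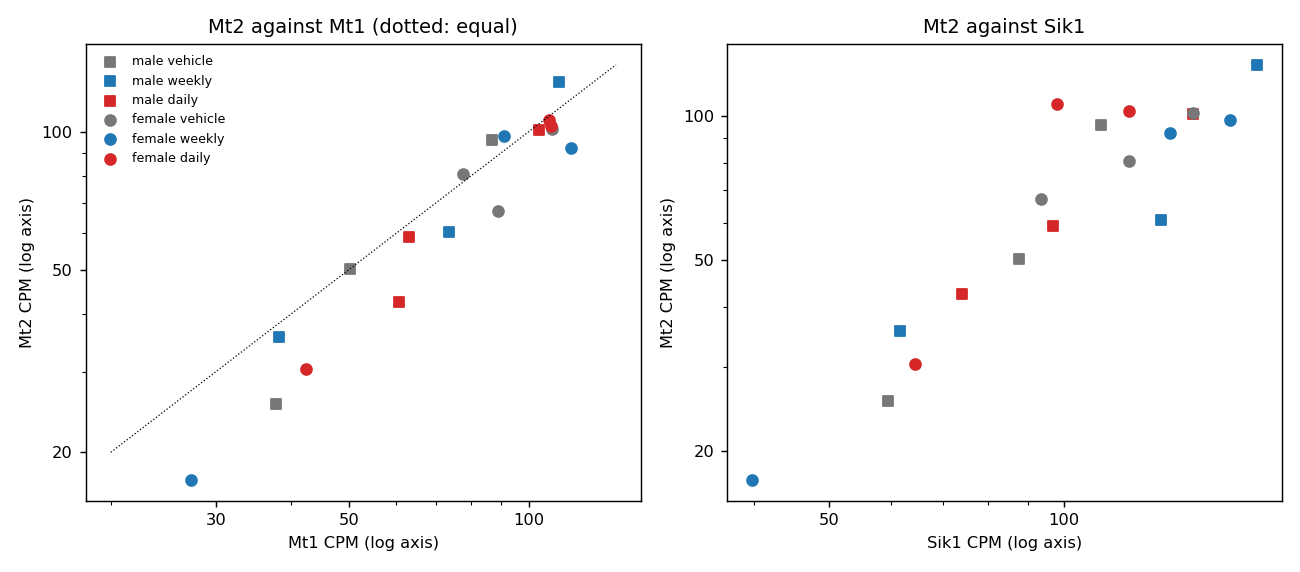
Mt2 CPM against Mt1 CPM (left, with a dotted line of equal values) and against Sik1 CPM (right), all on log axes, with 1 point per library (squares male, circles female; grey vehicle, blue weekly, red daily). Points of every group are spread along the same diagonal, from 17.4 to 128.1 CPM of Mt2, rather than set apart by treatment.

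The metallothioneins also moved with markers of fibroblasts and endothelial cells, and little with those of macrophages and adipocytes. With macrophage markers r was 0.08 for Mt1 and 0.07 for Mt2, and with adipocyte markers 0.13 and 0.03. Mt2 had r = 0.74 with the mean log2 CPM of 6 fibroblast markers (rho 0.62), 0.75 without the 2 farthest libraries and 0.78 for deviations from the group means. With 6 endothelial markers r was 0.65 (rho 0.46), which fell to 0.47 without the 2 farthest libraries. For deviations from the group means it was 0.64. Mt1 had r = 0.61 with the fibroblast markers (rho 0.51), and 0.61 without the 2 farthest. With the endothelial markers Mt1 had r = 0.58 (rho 0.44), and 0.39 without the 2 farthest. For deviations from the group means Mt1 had 0.66 with fibroblast and 0.55 with endothelial markers. With the 7 myofiber markers Mt2 had r = -0.55 (rho -0.52) and Mt1 r = -0.47 (rho -0.52). For deviations from the group means these were -0.75 and -0.64. The pattern was not particular to the metallothioneins. Slc39a14 had r = 0.51 with fibroblast, 0.39 with endothelial and -0.34 with myofiber markers, and 0.66, 0.64 and -0.67 for deviations from the group means. These values too are given with no p. Summed fibroblast markers were at 984.6 CPM in female daily replicate 1 and 1038 CPM in female weekly replicate 1, the lowest of the series, and both libraries had the lowest metallothionein values of their groups. The highest fibroblast sum, 3564 CPM, was in female vehicle replicate 3, where Mt2 was at 80.8 CPM. The part of these cells in the metallothionein levels was not tested.

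Lcn2 is known from neutrophils, macrophages and adipocytes, and these marker lists were read beside it. The marker lists were chosen with earlier results of these data known, so their counts and p values are a description. Ly6g, which defines neutrophils, was at 0 in all libraries, and 2 of the 13 neutrophil markers passed the filter on low counts. The summed neutrophil markers were at 1.14 to 1.56 CPM in male vehicle and 1.13 to 1.86 CPM in male daily libraries, and at 2.96 to 3.59 CPM in female vehicle and 2 to 2.18 CPM in female daily libraries. They overlapped vehicle in daily males and were below it in daily females. In weekly males they were at 1.74 to 6.05 CPM, all above vehicle, and in weekly females at 1.91 to 6.1 CPM, overlapping vehicle. S100a9, 1 of the pair that passed the filter, was at 3.69 ± 1.32 on the log2 scale in weekly males against vehicle (edgeR adjusted p = 0.849). Mmp9, the other of the pair, was at 0.21 ± 0.48 there (edgeR adjusted p = 0.948), and both genes overlapped vehicle. The part of neutrophils in the Lcn2 levels was not tested.

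Of 8 macrophage markers, 1 rose with daily prednisone and none fell, in the mean of the sexes, where 15% of all genes passed, and in males, where 6.46% did. The list medians were 0.08 and -0.01 on the log2 scale, and nothing is read from these counts. Cd68, a lysosomal protein of macrophages, rose by 1.72 ± 0.30 in males (edgeR adjusted p = 0.00785) and by 1.41 ± 0.21 in the mean of the sexes (adjusted p = 0.000961). The summed markers were at 53.2 to 59.8 CPM in male vehicle, 52.2 to 59.6 in male weekly and 50.6 to 66.6 in male daily libraries. In females they were at 32.6 to 65.2 CPM with vehicle, 81.9 to 99.1 with weekly and 51.9 to 64 with daily prednisone, so that weekly females stood above vehicle without overlap. In that comparison edgeR passed 0 of the 8, with 6 under an unadjusted p of 0.05 and 2 by DESeq2. Among all 13596 genes these were 1083 and 152. The part of macrophages in the Lcn2 levels was not tested.

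Adipocyte markers did move with treatment. Summed over 9 genes they were at 320.4 to 570.8 CPM in male vehicle, 664.9 to 1154 in male weekly and 648.9 to 1439 in male daily libraries, and at 654.0 to 745.2 CPM in female vehicle, 866.0 to 5386 in female weekly and 1105 to 3178 in female daily libraries. In the mean of both sexes 7 of the 9 rose with daily prednisone (edgeR), where 15% of all genes passed, and none fell. They were Adipoq, the adiponectin gene (2.99 ± 0.64, adjusted p = 0.00746), Plin1, Cidec, Cfd, Retn, Lep and Acvr1c. Acvr1c no longer passed in 6 of 12 fits with 1 library left out. Lep also rose in females alone (4.95 ± 0.94, edgeR adjusted p = 0.0429), and no longer passed there in 5 of 6 such fits. Of the 7 myofiber markers, Mylpf (-0.58 ± 0.15, adjusted p = 0.0159) and Tnnt3 (-0.45 ± 0.15, 0.0498) fell in the mean of the sexes by edgeR, where 15% of all genes passed. Log2 fold changes of 3 of the 7 were above 0. Tnnt3 no longer passed in 10 of 12 fits with 1 library left out. Over the 18 libraries Lcn2 had a Pearson r of 0.60 and a Spearman rho of 0.69 with the mean log2 CPM of the adipocyte markers, and r was 0.82 without the 2 farthest libraries. These values hold the treatment differences that chose Lcn2 and are given with no p. For deviations from the group means r was -0.03. Female weekly replicate 3 had the highest adipocyte sum of the series, 5386 CPM, and the lowest Lcn2 of its group, 2.70 CPM. With the mean log2 CPM of the adipocyte markers as a covariate, the log2 fold change of Lcn2 was 2.19 ± 0.47 in daily males, 1.93 ± 0.49 in daily females, 2.07 ± 0.47 in weekly males and 0.78 ± 0.52 in weekly females, about as large as without it. With it Lcn2 had an adjusted p under 0.05 in daily males, as 1.49% of all genes did, and not in daily females, and nothing is read from this.

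**Figure D4:**
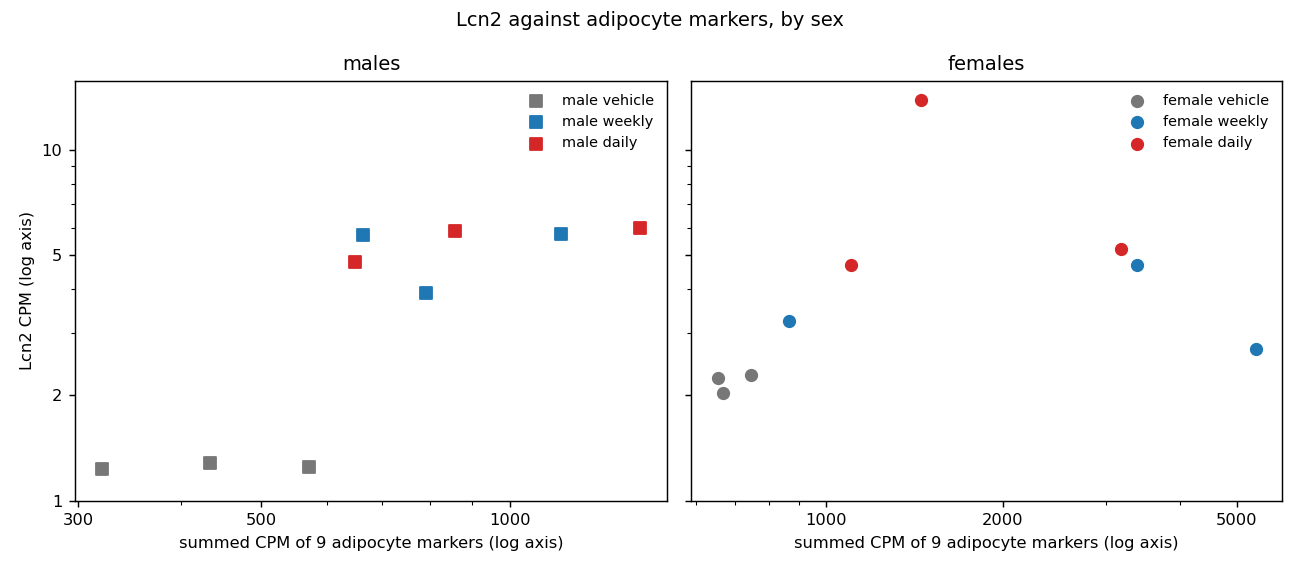
Lcn2 CPM against the summed CPM of 9 adipocyte markers in males (left) and females (right), on log axes, with 1 point per library (grey vehicle, blue weekly, red daily). Treated libraries have more of both than vehicle libraries of the same sex, and the female library with the most adipocyte markers, 5386 CPM, has 2.70 CPM of Lcn2.

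The genes around the members were read from 6 lists. Each gene was compared between groups with edgeR, its p was adjusted over all 13596 genes, and no list was tested as a set. The lists were chosen with earlier results of these data known, so their counts, medians and p values are a description. Zinc importers of the SLC39 family, without Slc39a14, had 0 of 11 tested genes past the threshold with daily prednisone in the mean of the sexes, with 2 under an unadjusted p of 0.05 and 0 by DESeq2. Their median log2 fold change was 0.18, against 0.02 for all genes. The smallest p values belonged to Slc39a5 (-0.66 ± 0.26), Slc39a7 (0.34 ± 0.14) and Slc39a10 (0.30 ± 0.15). Zinc exporters of the SLC30 family had 0 of 7 past the threshold, 3 under an unadjusted p of 0.05 and 0 by DESeq2, with a median of 0.17. Among all 13596 genes 3974 had an unadjusted p under 0.05 in this comparison, and DESeq2 passed 2354.

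Of 14 tested genes of the metal response, 3 rose and 1 fell with daily prednisone in the mean of the sexes (edgeR), where 15% of all genes passed (1017 higher and 1016 lower). The list median was 0.25. Atp7a, the copper exporter, rose by 0.93 ± 0.20 (adjusted p = 0.00647), and Gclc, which makes the first product on the way to glutathione, rose by 0.58 ± 0.11 (adjusted p = 0.00231). Mtf2, a Polycomb protein named after the metal response, rose by 0.51 ± 0.15 (adjusted p = 0.0327) and no longer passed in 7 of 12 fits with 1 library left out. Commd1, which takes part in copper export, fell by 0.47 (SE 0.11, adjusted p = 0.00816). Gclc (0.79 ± 0.15, adjusted p = 0.0104) and Commd1 (-0.55 ± 0.15, adjusted p = 0.0423) also passed in males alone. With 1 library left out, Gclc no longer passed there in 1 of 6 fits and Commd1 in 6 of 6, and with the adipocyte covariate neither passed (0.70 ± 0.18, adjusted p = 0.0576, and -0.51 ± 0.19, 0.145).

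Of 17 tested iron genes, 3 rose and none fell with daily prednisone in the mean of the sexes, a share near the 15% of all genes, with a list median of 0.14. They were Heph, an iron oxidase (1.32 ± 0.38, edgeR adjusted p = 0.0288), Ncoa4, the receptor that brings ferritin to autophagy (0.62 ± 0.15, 0.0115), and Ireb2, an iron sensor (0.38 ± 0.11, 0.0241). Heph no longer passed in 7 of 12 fits with 1 library left out, and Ireb2 in 3. Of 24 tested acute-phase genes and their inducers, with Lcn2 left out, 4 rose and none fell, again near the 15% of all genes, with a list median of 0.14. Haptoglobin, Hp, rose 8.41-fold (log2 3.07 ± 0.62, adjusted p = 0.00544), Orm1 rose 7.43-fold (2.89 ± 0.65, 0.00838), Il6ra rose by 1.27 ± 0.31 on the log2 scale (0.0118) and Lrg1 by 0.51 ± 0.15 (0.0289), all by edgeR. Lrg1 no longer passed in 8 of 12 fits with 1 library left out. Hp and Orm1 are known from liver and fat. Hp reached 146.0 CPM in female weekly replicate 3, the library with the most adipocyte markers, and 6.60 CPM in female weekly replicate 2, the one with the least in its group.

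With the adipocyte covariate, Hp was at 0.49 ± 0.26, Orm1 at 0.37 ± 0.35, Heph at 0.25 ± 0.45 and Ncoa4 at 0.09 ± 0.15, and none of them passed. Lcn2 was at 2.06 ± 0.39 in the same fit, a description. Atp7a was at 1.29 ± 0.27 (edgeR adjusted p = 0.056) and Gclc at 0.48 ± 0.16 (0.129). Summed adipocyte markers were above vehicle without overlap in every treated group, so the covariate is confounded with treatment. This fit cannot tell treatment from adipocyte share, and the part of adipocytes in these gene levels was not tested.

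Of 13 tested targets of the glucocorticoid receptor, the factor that prednisone acts through, 3 rose and none fell with daily prednisone in the mean of the sexes, against 15% of all genes in both directions, with a list median of 0.21. These were Klf9 (0.61 ± 0.13, edgeR adjusted p = 0.00565), Zbtb16 (0.56 ± 0.15, 0.019) and Angptl4 (1.75 ± 0.48, 0.0241). With the adipocyte covariate Angptl4 turned to -0.33 ± 0.24, while Klf9 (0.60 ± 0.19, edgeR adjusted p = 0.123) and Zbtb16 (0.57 ± 0.22, 0.189) were as large and no longer passed. Without single libraries Angptl4 no longer passed in 4 of 12 fits. Mt1 and Mt2 in the same comparison were at 0.15 ± 0.36 and 0.09 ± 0.47.

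In daily females alone no gene of the 6 lists passed in edgeR. Of the zinc importers 0 of 11 had an unadjusted p under 0.05, of the zinc exporters 2 of 7, of the metal response genes 4 of 14, of the iron genes 6 of 17, of the acute-phase genes 4 of 24 and of the glucocorticoid receptor targets 1 of 13. Among all genes 2354 of 13596 did, and nothing is read from the list counts. DESeq2 passed 1 iron gene, 3 acute-phase genes and 1 receptor target there, and 526 of all genes. In daily males alone Zbtb16 passed as well (0.77 ± 0.21, edgeR adjusted p = 0.039). It no longer did in 6 of 6 fits with 1 library left out, nor with the adipocyte covariate (0.78 ± 0.25, adjusted p = 0.101).

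With weekly prednisone no gene of the 6 lists passed in edgeR. In the mean of the sexes 1 of 11 zinc importers, 0 of 7 zinc exporters, 3 of 14 metal response genes, 5 of 17 iron genes, 5 of 24 acute-phase genes and 1 of 13 glucocorticoid receptor targets had an unadjusted p under 0.05. Among all genes 1492 of 13596 did, and nothing is read from the list counts. DESeq2 passed 2 list genes there, both on the acute-phase list, and 183 of all genes. The smallest p values of that list belonged to Orm1 (3.05 ± 0.65) and Hp (2.83 ± 0.62).

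Between the sexes in vehicle mice, 1 zinc exporter of 7 passed. Slc30a2, which loads zinc into vesicles, was lower in females by -3.38 ± 0.19 on the log2 scale (edgeR adjusted p = 1.89e-08). Male libraries of every treatment held 18.6 to 25.8 CPM and female libraries 1.62 to 3.08 CPM. The sexes did not overlap in any treatment, whereas Mt1, Mt2 and Slc39a14 overlapped between the vehicle groups of the sexes. On the acute-phase list, Gadd45a (0.97 ± 0.19, adjusted p = 0.0202) and Il6st, the shared receptor chain of interleukin 6 (0.71 ± 0.16, 0.0423), were higher in females by edgeR. With 1 library left out, Gadd45a no longer passed in 4 of 6 fits and Il6st in 5 of 6.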

How the data were processed

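The authors aligned the reads to mm10 and deposited raw counts, 1 whole number for each gene and library, with no normalization. The submitters' processing notes name TopHat2 2.1.0, Bowtie2 2.2.6 and HTSeq, and builds mm10 and mm9. The strand setting and the annotation release are not given in the sources used here. Of 43430 identifiers, 42462 had a symbol. Titles gave each library its group and replicate number. In 12 libraries the column name carries another number than the title. Replicates are labelled as separate samples, and p values measure the spread between them.

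Counts were fitted in R 4.3.3 with edgeR 4.0.16 (filterByExpr with a minimum count of 10, TMM, robust quasi-likelihood test, 6 group means over 18 libraries, Benjamini-Hochberg over 13596 genes, threshold 0.05). The SE of a log2 fold change was its absolute value divided by the square root of F in the quasi-likelihood test. It rests on a spread estimated from all 18 libraries, not from the compared groups alone. Fitting was checked on simulated counts. DESeq2 1.42.0, DESeq2 size factors, no filter, a replicate block, the adipocyte markers as covariate and leaving out each library were tried. Log2 CPM for correlations used a prior count of 2. Transcript lengths came from GENCODE M21. Relations were Pearson and Spearman correlations over the 18 libraries, given with no p. No 2 libraries of a group were alike within sampling noise (chi-square per degree of freedom 13.2 or more).

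The members and the gene lists were chosen with earlier results of these data known. Beside the members, the text names the list genes, markers included, with an adjusted p under 0.05 in a comparison, at most 3 with the smallest p from a list with none, and the 5 genes most correlated with each pattern.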

Additional observations from a re-analysis of the deposited data

How the results depend on the processing

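Of the member values, DESeq2, its size factors, no filter, the replicate block and the adipocyte covariate each left all 36 counted as unchanged. So were 308 of 312 values with 1 library left out. Treatment values counted as unchanged if they moved by less than the gene's SD within groups, 0.72 for Mt1 and 0.94 for Mt2. This is a lenient rule, under which directions could turn. With 1 library left out, Mt2 ran from -0.25 to 0.99 in weekly males and Mt1 from -0.64 to 0.18 in weekly females. Slc39a14 ran from -0.07 to 0.61 in weekly males. Differences between the sexes counted as unchanged if they kept their direction and side of the threshold. The exceptions to these rules were Lcn2 in daily females, 1.18 without female daily replicate 2, and the sex difference of the daily response of Mt2, which turned to 0.09, 0.11 and 0.04 without female daily, male daily or male vehicle replicate 1 (range with 1 library left out, -0.91 to 0.11). Lcn2 in daily females no longer passed with the adipocyte covariate, with the replicate block, or without any 1 of 14 libraries.

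Counts of genes past the threshold moved more. With DESeq2 they were 1346 (daily males), 526 (daily females), 1 (weekly males), 152 (weekly females), 183 (weekly, mean of sexes), 2 (sex difference of the daily response) and 235 (female against male vehicle), against 878, 52, 0, 0, 0, 0 and 104. With the adipocyte covariate they were 203 in daily males, 0 in daily females and 27 instead of 2033 in the mean of the sexes. No filter left 29 in daily females. Of 32 calls on list genes, 26 were lost with the covariate, and Acvr1c (-0.37), itself 1 of the adipocyte markers, and Angptl4 (-0.33) turned. Several lost calls kept their size with a wider SE, such as Klf9 (0.60), Cd68 (1.55), Atp7a (1.29) and Mylpf (-0.61). With 1 library of the groups compared left out, counts ran from 92 to 414 in daily males, 0 to 126 in daily females, 1340 to 2475 for daily in the mean of the sexes, 0 to 253 in weekly females, 0 to 174 for weekly in the mean of the sexes, 0 to 1 for the sex difference of the daily response and 43 to 105 between vehicle sexes, and stayed at 0 in weekly males and where the weekly response was compared between the sexes. Leaving out female daily replicate 2, which shares the estimate of spread, gave 1 gene, Lcn2, in weekly males and in the weekly mean of the sexes. The lowest counts came without male vehicle replicate 1 in daily males, and the 253 and 174 without female weekly replicate 2. The cause was not tested.

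With the replicate block 8 genes passed in daily females. The shared numbers are no pairing from the labels: correlations of same-numbered deviations ran from -0.503 to 0.501, and in 1 of 15 pairs of groups, female weekly with female daily, all 3 were over 0.1. Those groups were not compared. Lcn2 is limited by depth, with 12 to 14 counts per male vehicle library.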
